A study of Mus musculus with 6 samples.

Results

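The proteasome genes described here are the 39 of 41 matching rows of the deposited table whose mean over the 6 libraries reached 10 normalised counts, among 11947 genes that did so. They were chosen by symbol: every gene named Psma, Psmb, Psmc or Psmd with a number, plus Psme1, Psme2, Psme3 and Psmg1, and without the immunoproteasome subunits Psmb8, Psmb9 and Psmb10. The 2 rows under the minimum were Psma8, the testis form of an alpha subunit, and Psmb11, the thymus form of a catalytic subunit. Psma8 had 0, 1.07 and 2.99 normalised counts in Stim1KO Stat3C, against 3.03, 18.6 and 3.88 in Stat3C. Psmb11 had 9.59, 9.67 and 5.97 in Stim1KO Stat3C, against 5.63, 4.03 and 6.78 in Stat3C. The lowest mean above the minimum was far higher, 448.5 for Psmc3ip. A normalised count is a read count divided by the size factor of its library. Of the 39, 31 are structural subunits of the constitutive particle, 4 are assembly chaperones, 3 are activator subunits and 1, Psmc3ip, is not a proteasome component but a meiotic recombination factor that the rule takes by its symbol. Poly(A) RNA came from mouse pathogenic Th17 cells, helper T cells that make interleukin-17 and need IL-23 to become inflammatory. They had been grown for 2 days from naive CD4 T cells of C57BL/6 mice on plates coated with antibodies to CD3 and CD28, in medium with IL-23, IL-1b and IL-6. The group called Stim1KO Stat3C had the genotype Stim1fl/fl Stat3CSTOPfl/fl CD4-Cre, and the group called Stat3C had the genotype Stat3CSTOPfl/fl CD4-Cre, with 3 libraries in each. In both groups Cre from the Cd4 promoter removed a stop sequence before Stat3C, a constitutively active STAT3. Both thus carried that allele, and no group was without it. In Stim1KO Stat3C the same Cre deleted floxed Stim1, the calcium sensor of the endoplasmic reticulum. No source used here gives the age of the mice or says that each library came from its own mouse. The p-values therefore reflect how far these libraries scatter, part of which may be technical.

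The proteasome is the protease that degrades proteins tagged with ubiquitin. Its 20S core is a barrel of alpha and beta rings, and the active sites lie inside, on Psmb5, Psmb6 and Psmb7. The 19S cap binds ubiquitin, removes it and feeds the unfolded substrate into the core: its base holds a ring of ATPases (Psmc1 to Psmc6) and its lid holds the deubiquitinase Psmd14. Activated T cells need the proteasome for signalling through NF-kB, for the cell cycle and for the peptides shown on MHC class I, and interferon-gamma swaps the catalytic subunits for Psmb8, Psmb9 and Psmb10.

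Stim1 stood at 811, 794 and 687 normalised counts in Stim1KO Stat3C, against 1999, 1969 and 1931 in Stat3C (log2 fold change -1.37, SE 0.08, limma, adjusted p = 0.000287), so the deleted gene was lower in all 3 libraries labelled as lacking it. Multiplied back to whole reads, the libraries held 16009755 to 22519269 recovered reads in Stim1KO Stat3C and 23092044 to 51347367 in Stat3C. All 5 T cell markers were present at summed levels of 33931 to 37355 in Stim1KO Stat3C and 27937 to 30850 in Stat3C, and the 6 Th17 markers summed to 4616 to 5449 and 14436 to 19057. Markers of other cells were low but unequal. The 2 CD8 markers summed to 111 to 159 in Stim1KO Stat3C and 277 to 454 in Stat3C, and the 5 B cell markers to 30.1 to 58.9 and 124 to 352, with Ms4a1 at 0 in every Stim1KO Stat3C library. The 5 myeloid markers summed to 5.97 to 17.2 and 17.4 to 166, the highest value being that of Stat3C replicate 2, which also had the highest sum of the 3 erythroid markers (477, against 3.88 to 52.0 in the other 5 libraries, with Hba-a1 at 0 in all 6). The 4 NK cell markers summed to 4.30 to 13.7 and 8.72 to 18.1. In bulk RNA, fewer cells of a type and less RNA per cell cannot be told apart, and the part of these cells in the results below was not tested.

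Transcripts of the constitutive proteasome differed little between the groups. Of the 39 genes, 1 fell in Stim1KO Stat3C (Psmg1, an assembly chaperone), none rose and 38 did not pass an adjusted p of 0.05 (limma with a variance trend, two-sided, Benjamini-Hochberg over all 11947 genes). Over all genes tested, 4.96% were called lower and 8.62% higher, 13.6% in all. Of the proteasome genes 2.56% were called, which is 1 gene. The number called lower moved with the setting, from 0 with edgeR to 11 with library quality weights (15.1% of all genes lower). None of the 31 structural subunits was called by the unweighted limma test on all 6 libraries. Of them 5, or 16.1%, had an unadjusted p under 0.05 by limma, all lower. Over all genes 14.0% were lower at that p, and 31.1% passed it in either direction. On the recovered reads edgeR called none of the 39 genes lower (4.7% of all genes), and DESeq2 called 5 (8.51% of all genes). Log2 fold changes, all Stim1KO Stat3C minus Stat3C and computed on log2(value + 1), ran from -0.20 (Psmb6) to 0.04 (Psma3) among the 31 subunits. Their 95% intervals stayed between -0.38 and 0.16.

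The small differences had a common sign. Of the 39 log2 fold changes 35 were negative, or 89.7%, against 50.2% of all genes, and their median was -0.08, against -0.001 over all genes tested. Counts in 1 library share its scaling factor, so the 39 values are not independent of each other. The groups did not overlap for 6 of the 39 genes (Psma7, Psmb5, Psmb6, Psmd2, Psmd7 and Psmg1), all lower in Stim1KO Stat3C. That is 15.4% of them, close to the 16.4% of all genes that were lower without overlap, while no proteasome gene was higher without overlap, against 19.2% of all genes. Of the 31 subunits, 30 had a log2 fold change within 0.2 of 0, or 96.8%, against 69.4% of the 1474 genes whose means lay in the same range (2955 to 12267). The same 1474 genes included 309 called, or 21.0%.

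**Figure D1:**
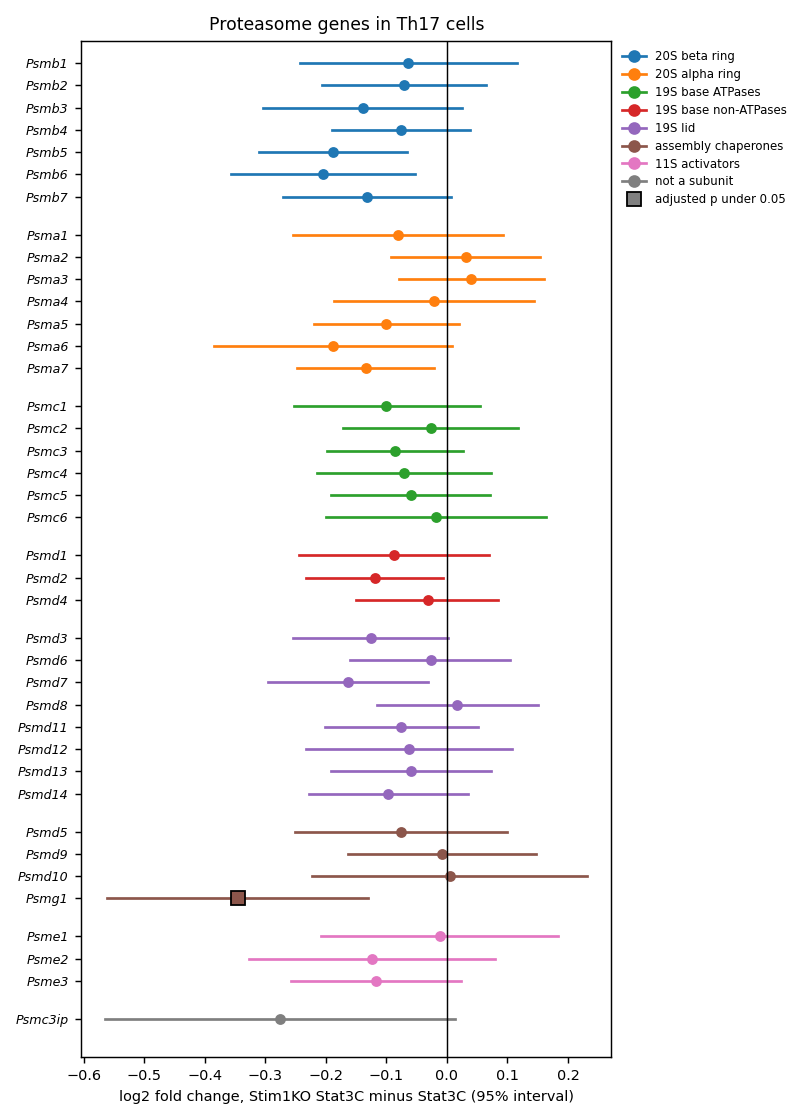
Log2 fold change (Stim1KO Stat3C minus Stat3C) with its 95% interval for each of the 39 proteasome genes, coloured by role, with a square for an adjusted p under 0.05. Psmg1 is the single square, at -0.35, and 35 of the 39 points lie left of 0.

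The beta ring, which carries the active sites, had the most negative median of the structural groups, -0.13, and all 7 of its fold changes were below 0. Psmb5, the chymotrypsin-like subunit and main target of the drug bortezomib, had 3098, 3081 and 3211 normalised counts in Stim1KO Stat3C, against 3434, 3538 and 3729 in Stat3C. Every Stim1KO Stat3C library lay below every Stat3C library. Its log2 fold change was -0.19 (SE 0.05), which did not pass (limma, adjusted p = 0.0524). Psmb6, the caspase-like subunit, had 3813, 3818 and 4230 in Stim1KO Stat3C, against 4439, 4352 and 4868 in Stat3C. Here too the groups were apart, with Stim1KO Stat3C replicate 3 nearest to Stat3C, and the log2 fold change was -0.20 (SE 0.07, limma, adjusted p = 0.0792). Psmb7, the trypsin-like subunit, had 4525, 4764 and 4974 in Stim1KO Stat3C, against 5177, 4948 and 5509 in Stat3C. The groups overlapped, because Stim1KO Stat3C replicate 3 lay above Stat3C replicate 2, and the log2 fold change was -0.13 (SE 0.06, limma, adjusted p = 0.178). The 4 beta subunits without an active site, Psmb1 to Psmb4, had log2 fold changes of -0.14 to -0.06. Psmb5 passed the threshold in 6 of 20 alternative settings and Psmb6 in 4. Both passed without Stat3C replicate 2 (limma, adjusted p = 0.0450 and 0.0330, with 10.3% of all genes called lower), but not without any other library. With all 6 libraries both passed under DESeq2 (adjusted p = 0.0118 and 0.0259, 8.51% of all genes lower), library quality weights (0.0265 and 0.0185, 15.1%) and Xist as a covariate (0.0391 and 0.0271, 5.3%). Psmb5 alone also passed under TMM scaling (0.0485, 5.19%) and upper quartile scaling (0.0377, 5.91%). Pseudogene copies of Psma5, Psmb5, Psmb6 and Psmb7 have no row of their own, so the counts of these genes are uncertain.

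Psmb5 (chromosome 14, 54614119 to 54618022, minus strand) and Psmb6 (chromosome 11, 70525367 to 70527858, plus strand) are also 2 of the 5 proteasome genes whose promoter window holds TGACNNNGC. This is the core of the antioxidant response element, to which the factors NFE2L1 and NFE2L2 bind with small MAF proteins, and NFE2L1 is the factor known to induce proteasome genes when the protease is inhibited. The windows run from 250 bases before to 50 after the start, from RefSeq on GRCm38.p6, and 33 of the 39 genes had one (Psmb1, Psmb2, Psmb7, Psmc3, Psmd3 and Psmd7 had none). The match was looked for on both strands, and stands in capitals in the stretches before the start that follow, shown because they hold each of the 5 matches. The last 2 are matches on the opposite strand. The first letters of the Psmb5 match, TGACG, are also those of the cAMP response element.
Psmb5 (chr14:54618023-54618092, minus strand): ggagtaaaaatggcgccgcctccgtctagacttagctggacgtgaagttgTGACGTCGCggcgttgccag
Psmb6 (chr11:70525287-70525356, plus strand): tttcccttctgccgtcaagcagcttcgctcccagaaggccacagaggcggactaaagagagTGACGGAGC
Psmd9 (chr5:123228120-123228189, plus strand): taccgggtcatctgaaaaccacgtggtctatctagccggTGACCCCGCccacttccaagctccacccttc
Psmc6 (chr14:45329574-45329635, plus strand): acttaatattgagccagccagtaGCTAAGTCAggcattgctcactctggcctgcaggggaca
Psmd12 (chr11:107479278-107479319, plus strand): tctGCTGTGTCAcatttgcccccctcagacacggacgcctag

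The 5 matched genes stood at log2 fold changes of -0.19 (Psmb5), -0.20 (Psmb6), -0.01 (Psmd9), -0.02 (Psmc6) and -0.06 (Psmd12). It was present in 13.9% of the 36 windows of proteasome genes and in 12.4% of all 32851 windows. CCAAT, the box bound by NF-Y, was in 36.1% of the proteasome windows and 37.4% of all. TTCNNNGAA, the STAT motif, which reads the same on both strands, was in 5.56% and 8.30%, in the windows of Psmd2 and Psmg1. The stretch of Psmg1 that holds it lies 243 to 235 bases before the start, and is shown because Psmg1 is the gene that was called.
Psmg1 (chr16:95991165-95991210, minus strand): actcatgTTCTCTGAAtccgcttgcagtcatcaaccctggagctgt

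In the alpha ring, which forms the gate of the core, 5 of 7 fold changes were negative and none passed the unweighted limma test, with a median of -0.08. Psma3 had the highest fold change of all 39 genes, 0.04 (SE 0.05, limma, adjusted p = 0.633). Its values were 5204, 5665 and 5634 in Stim1KO Stat3C, against 5392, 5245 and 5402 in Stat3C, and the groups overlapped. Psma6 had the lowest of the ring, -0.19, with wide spread in both groups: 4529, 4696 and 5319 in Stim1KO Stat3C, against 5570, 4999 and 6011 in Stat3C. It did not pass (limma, adjusted p = 0.175), but did without Stat3C replicate 2 (0.0314, 10.3% of all genes lower) and with library quality weights (0.0204, 15.1%). Psma7 had 4936, 5125 and 5308 in Stim1KO Stat3C, against 5498, 5642 and 5717 in Stat3C, with no overlap. Its log2 fold change was -0.13 (SE 0.05), with an adjusted p of 0.111 by limma, against 0.0485 by DESeq2 (8.51% of all genes lower).

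In the 19S cap none of the 6 ATPases, 3 other base subunits and 8 lid subunits passed the unweighted limma test. Library quality weights called Psmd2, Psmd3, Psmd7 and Psmd14 lower, in a setting that called 15.1% of all genes lower. The 6 ATPases, which unfold the substrate, stood at -0.10 (Psmc1) to -0.02 (Psmc6), with a median of -0.07. Among the base subunits without ATPase activity, Psmd2 is a scaffold that docks ubiquitin shuttles. Its mean normalised count was the highest of the 39 genes, without correction for transcript length. Psmd2 had 11223, 11994 and 12077 normalised counts in Stim1KO Stat3C, against 12923, 12465 and 12920 in Stat3C. These groups did not overlap (log2 fold change -0.12, SE 0.05, limma, adjusted p = 0.145). Psmd1, the other large scaffold, stood at -0.09, and Psmd4, a ubiquitin receptor, at -0.03. In the lid, Psmd7, the partner of the deubiquitinase Psmd14, had 5646, 5356 and 5760 in Stim1KO Stat3C, against 6481, 5883 and 6427 in Stat3C. Its groups did not overlap, and its log2 fold change of -0.16 (SE 0.06) was the lowest of the cap (limma, adjusted p = 0.0964). Psmd7 passed without Stat3C replicate 2 (0.0223, 10.3% of all genes lower), with library quality weights (0.00592, 15.1%) and by DESeq2 (0.0368, 8.51%). Psmd14 itself stood at -0.10, and the remaining lid subunits at -0.13 (Psmd3) to 0.02 (Psmd8).

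The activators, rings that open the gate of the core in place of the 19S cap, did not pass the unweighted test on all 6 libraries. Psme3, which forms the nuclear activator, had 9075, 9117 and 9697 in Stim1KO Stat3C, against 10364, 9335 and 10577 in Stat3C (log2 fold change -0.12, SE 0.06, limma, adjusted p = 0.233). It passed without Stat3C replicate 2 (limma, adjusted p = 0.0442, 10.3% of all genes lower) and with library quality weights (0.0225, 15.1%). Psme1 and Psme2, neighbours on chromosome 14 and both induced by interferon-gamma, form the cytosolic activator and had their highest value in Stat3C replicate 2. Psme1 had 6302, 6107 and 6316 in Stim1KO Stat3C, against 5847, 7266 and 5865 in Stat3C. Psme2 had 4838, 4560 and 4475 in Stim1KO Stat3C, against 4665, 5819 and 4702 in Stat3C. In both genes Stat3C replicate 2 stood above the other 5 libraries, which lay close together. The log2 fold changes were -0.01 (SE 0.09, limma, adjusted p = 0.937) for Psme1 and -0.12 (SE 0.09, adjusted p = 0.376) for Psme2, and without that library 0.09 and -0.02 (adjusted p = 0.236 and 0.844).

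**Figure D2:**
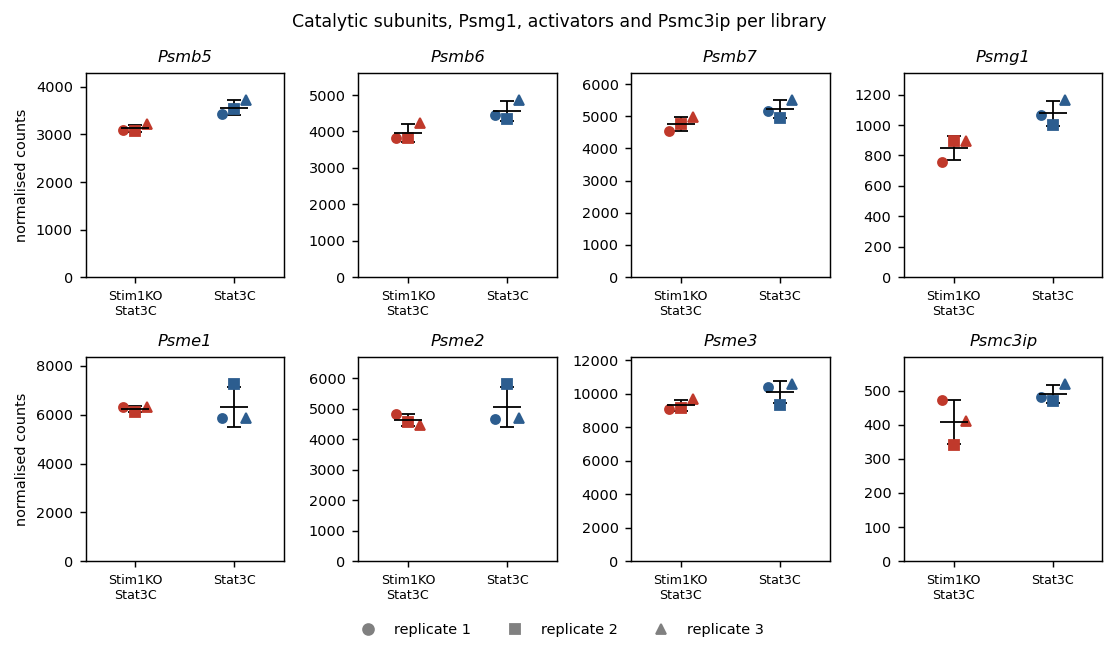
Normalised counts (vertical axes, from 0) per library of Psmb5, Psmb6, Psmb7, Psmg1, Psme1, Psme2, Psme3 and Psmc3ip, Stim1KO Stat3C in red left of Stat3C in blue, with marker shapes for the replicates and bars for mean and SD (n = 3 each). The groups are apart for Psmb5, Psmb6 and Psmg1, and in Psme1 and Psme2 the Stat3C replicate 2 square stands alone at 7266 and 5819.

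Psmg1 (chromosome 16, 95979933 to 95990960, minus strand) was the member that fell. It encodes a chaperone, PAC1, that pairs with PAC2 (Psmg2) to order the alpha ring during assembly and is no part of the finished particle. It had 756, 895 and 897 normalised counts in Stim1KO Stat3C, against 1066, 1001 and 1166 in Stat3C, a mean of 849 ± 80.6 against 1078 ± 82.8 (SD, n = 3 each). The groups did not overlap, and the log2 fold change was -0.35 (SE 0.09, limma, adjusted p = 0.0463). The call was lost in 10 of 20 alternative settings, among them edgeR (adjusted p = 0.0528) and the omission of any library but Stat3C replicate 2 (adjusted p = 0.0675 to 0.164, against 0.0152 without that library). The other 3 chaperones of the list assemble the 19S base, and none was called: Psmd5 stood at -0.08, Psmd9 at -0.01 and Psmd10, also known as gankyrin, at 0.005. Psmc3ip, the gene nearest to the minimum, had 471, 341 and 410 in Stim1KO Stat3C, against 481, 468 and 519 in Stat3C, with overlap through Stim1KO Stat3C replicate 1 (log2 fold change -0.28, SE 0.13, limma, adjusted p = 0.179).

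The remaining core assembly chaperones, which the symbol rule leaves out, held 2 further decreases. Psmg2 had 881, 1051 and 1063 normalised counts in Stim1KO Stat3C, against 1470, 1224 and 1358 in Stat3C, and fell by 0.44 on the log2 scale (SE 0.10, limma, adjusted p = 0.0260). Psmg3 had 667, 787 and 761 in Stim1KO Stat3C, against 930, 884 and 968 in Stat3C, and fell by 0.33 (SE 0.08, limma, adjusted p = 0.0382). In both the groups did not overlap, and the calls were lost in 6 and 7 of 20 settings. By limma, Psmg2 lost its call without Stim1KO Stat3C replicate 1 or 2 or Stat3C replicate 1 or 3 (adjusted p = 0.0617 to 0.103), and Psmg3 without any library but Stat3C replicate 2 (0.0624 to 0.143). Psmg4, the partner of Psmg3, also did not overlap between the groups but was not called (-0.19, limma, adjusted p = 0.207), and Pomp, which helps the core close, stood at 0.07. Of the 10 assembly and other factors measured outside the rule, 2 thus fell and none rose, while 8 missed the threshold (median -0.05), against 4.96% of all genes called lower. The subunits Adrm1 (-0.06) and Shfm1 (-0.01), the large activator Psme4 (-0.04) and the inhibitor Psmf1 (0.04) were among those 8.

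The subunits tended to be high or low in the same libraries. Of the 31 structural subunits 21 had their lowest value in Stim1KO Stat3C replicate 1, 7 in Stim1KO Stat3C replicate 2 and 3 in Stat3C replicate 2, and 23 had their highest in Stat3C replicate 3. Relative to the mean of each gene over the 6 libraries, the median subunit stood at -0.09, -0.06 and 0.03 on the log2 scale in Stim1KO Stat3C replicates 1, 2 and 3, against 0.04, -0.02 and 0.10 in Stat3C replicates 1, 2 and 3. The highest Stim1KO Stat3C library therefore lay above the lowest Stat3C library. Together the 31 subunits took up 0.706%, 0.720% and 0.752% of the normalised counts in Stim1KO Stat3C, against 0.765%, 0.748% and 0.792% in Stat3C, which also overlap. The coefficient of variation between replicates had a median of 4.65% in Stim1KO Stat3C and 4.36% in Stat3C over the 31, and 4.97% and 5.02% over the 1474 genes of like level.

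**Figure D3:**
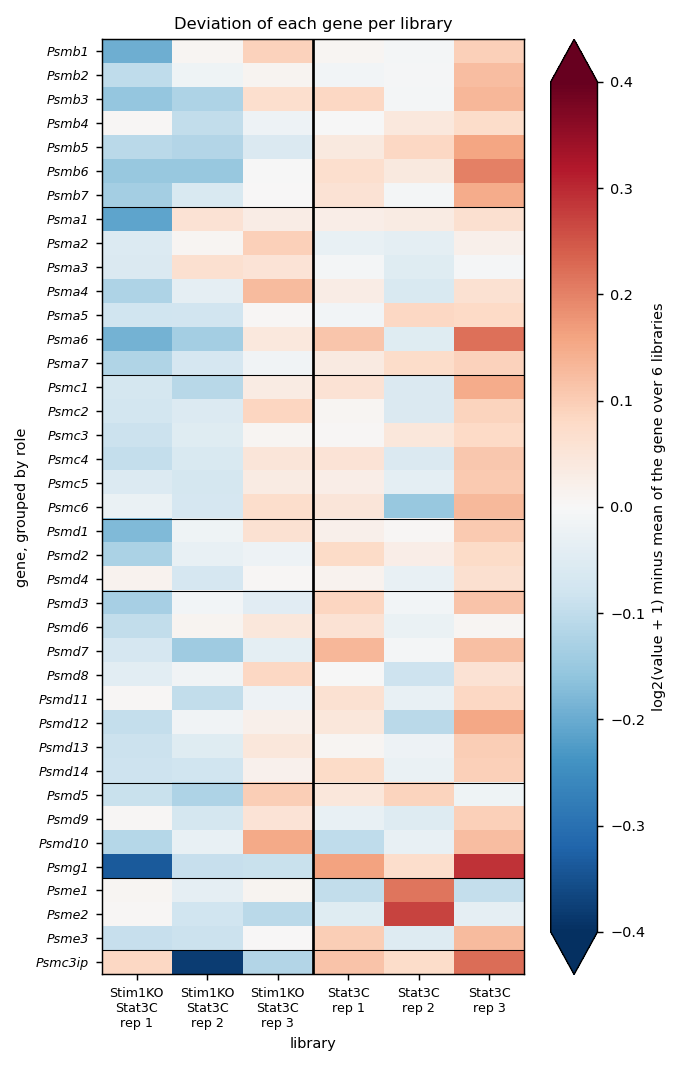
Each cell is the log2(value + 1) of 1 gene in 1 library minus the mean of that gene over the 6 libraries, with Stim1KO Stat3C left of the black line and genes grouped by role. Stim1KO Stat3C replicate 1 is mostly blue and Stat3C replicate 3 mostly red across the subunits (medians -0.09 and 0.10), and Psme1 and Psme2 stand out in Stat3C replicate 2.

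Subunits that enter the particle in equal numbers were not equal in transcript level. Per kilobase of the principal GENCODE transcript, the mean over 6 libraries ran from 1313 normalised counts (Psmd11) to 6759 (Psmb3) among the 31 structural subunits, a 5.15-fold range with a median of 3725. The median was 4971 for the beta ring, 3924 for the alpha ring, 3670 for the ATPases, 3184 for the other base subunits and 2284 for the lid. The assembly chaperones were lower, at 923 for Psmg1, 525 for Psmd9, 449 for Psmd10 and 291 for Psmd5. These levels rest on the transcript length assumed. With the shortest coding transcript of each gene the range was 1613 (Psmc6) to 6759 (Psmb3) and the median 4143. By that length the medians were 5330 for the beta ring, 4451 for the alpha ring and 3857 for the ATPases. The lid, at 3365, was then not below the other base subunits, at 3324.

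The immunoproteasome was abundant in both groups and, like Psme1 and Psme2, was highest in Stat3C replicate 2. None of its 3 catalytic subunits passed the unweighted test. Psmb8, the counterpart of Psmb5, had 7223, 6868 and 6898 in Stim1KO Stat3C, against 6835, 8161 and 7226 in Stat3C (log2 fold change -0.08, limma, adjusted p = 0.476). Psmb9, the counterpart of Psmb6, had 2742, 2551 and 2493 in Stim1KO Stat3C, against 1892, 2817 and 1979 in Stat3C (0.24, limma, adjusted p = 0.275). Psmb9 in Stat3C was thus high in replicate 2 and low in replicates 1 and 3. Without Stat3C replicate 2 its log2 fold change was 0.42 and passed the test (limma, adjusted p = 0.00173, 14.6% of all genes higher). Psmb9 also passed with all 6 libraries under library quality weights (0.40, limma, adjusted p = 0.0119, 18.0% of all genes higher). Psmb10, the counterpart of Psmb7, had 1632, 1660 and 1520 in Stim1KO Stat3C, against 1752, 2582 and 1748 in Stat3C (-0.31, limma, adjusted p = 0.179, and -0.13 without Stat3C replicate 2), with no overlap between the groups. The ratio of Psmb9 to Psmb6 counts was 0.719, 0.668 and 0.589 in Stim1KO Stat3C, against 0.426, 0.647 and 0.406 in Stat3C. The ratio of Psmb8 to Psmb5 was 2.33, 2.23 and 2.15, against 1.99, 2.31 and 1.94, and that of Psmb10 to Psmb7 was 0.361, 0.349 and 0.306, against 0.338, 0.522 and 0.317. All 3 ratios overlapped between the groups. For Psmb8 over Psmb5 and Psmb9 over Psmb6 it was Stat3C replicate 2 that lay among the Stim1KO Stat3C values, while for Psmb10 over Psmb7 it lay above every library and Stat3C replicates 1 and 3 lay among them. Stat3C replicate 2 also had the most myeloid and erythroid marker counts, whose part in this was not tested.

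**Figure D4:**
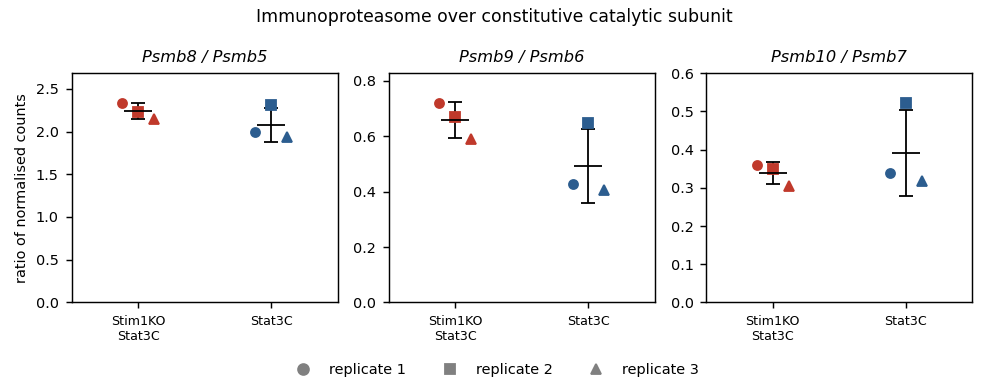
Ratio of normalised counts of each immunoproteasome subunit to its constitutive counterpart per library, Stim1KO Stat3C in red left of Stat3C in blue, with bars for mean and SD (n = 3 each). For Psmb9 over Psmb6 the Stim1KO Stat3C libraries lie at 0.589 to 0.719 and Stat3C replicates 1 and 3 at 0.426 and 0.406, with Stat3C replicate 2 among the Stim1KO Stat3C values.

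Several genes that work with the proteasome were called. Of 9 deubiquitinases, shuttles and other factors of the 19S cap, 3 fell and none rose, while 6 missed the threshold (median -0.15), against 4.96% of all genes called lower. Ubqln4, a shuttle that carries ubiquitinated proteins to the cap, had 2583, 2951 and 2695 normalised counts in Stim1KO Stat3C, against 3451, 3368 and 3379 in Stat3C (log2 fold change -0.31, SE 0.06, limma, adjusted p = 0.0154). Usp14, the deubiquitinase that trims chains on the cap, had 1783, 1939 and 2087 in Stim1KO Stat3C, against 2338, 2276 and 2429 in Stat3C (-0.28, SE 0.07, adjusted p = 0.0351). Rad23b, another shuttle, had 5707, 5974 and 6375 in Stim1KO Stat3C, against 7074, 6805 and 7225 in Stat3C (-0.23, SE 0.06, adjusted p = 0.0354). The groups did not overlap for any of the 3, and each lost its call in 5 of 20 settings. By limma, Usp14 and Rad23b lost it without Stim1KO Stat3C replicate 1 or 2 or Stat3C replicate 1 or 3 (adjusted p = 0.0994 to 0.132 and 0.108 to 0.135), and Ubqln4 without Stim1KO Stat3C replicate 1 or Stat3C replicate 1 or 3 (0.0553 to 0.0710).

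At the start of the ubiquitin pathway 1 of 6 genes rose, against 8.62% of all genes. Uba1, the main ubiquitin-activating enzyme, had 30833, 31481 and 30845 in Stim1KO Stat3C, against 24382, 23409 and 23956 in Stat3C, a log2 fold change of 0.38 (SE 0.04, limma, adjusted p = 0.00233). It kept its call in all 20 settings (adjusted p at most 0.0261). None of 8 genes of the p97 segregase, which pulls proteins out of membranes and complexes for degradation, was called, and its catalytic subunit Vcp stood at 17857 ± 891 in Stim1KO Stat3C and 18336 ± 400 in Stat3C (SD, n = 3 each, log2 fold change -0.04). The cofactor Nploc4 stood at 0.02.

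The list of NFE2L1, the inducer of proteasome genes, and its processing held changes both ways, with 2 of 10 genes higher and 1 lower, against 8.62% and 4.96% of all genes. Nfe2l1 itself had 3340, 3179 and 3276 in Stim1KO Stat3C, against 3412, 3102 and 3235 in Stat3C (log2 fold change 0.01, SE 0.06, limma, adjusted p = 0.940), and the groups overlapped. Ngly1, the glycanase that activates NFE2L1, had 674, 664 and 608 in Stim1KO Stat3C, against 416, 532 and 403 in Stat3C (0.53, SE 0.12, adjusted p = 0.0236). Sel1l, an adaptor of the ligase that removes proteins from the endoplasmic reticulum, had 2198, 2270 and 2067 in Stim1KO Stat3C, against 1725, 1819 and 1708 in Stat3C (0.31, SE 0.06, adjusted p = 0.0140). Nfe2l2, which encodes the oxidative stress factor NRF2, fell: it had 575, 722 and 620 in Stim1KO Stat3C, against 914, 1203 and 895 in Stat3C (-0.64, SE 0.13, adjusted p = 0.0187). Ngly1 and Sel1l were not called by limma without Stim1KO Stat3C replicate 1 or 2 or Stat3C replicate 1 or 3 (adjusted p = 0.0844 to 0.0952 and 0.0548 to 0.0668), nor Nfe2l2 without Stim1KO Stat3C replicate 1 or 3 (0.0797 and 0.0590). Of 8 interferon-inducible genes of antigen processing, 2 rose, against 8.62% of all genes. All 8 fold changes were above 0, with a median of 0.31, as were 5953 of the 11947 over all genes tested. B2m, the light chain of MHC class I, had 23771, 21086 and 20827 in Stim1KO Stat3C, against 12964, 19114 and 13219 in Stat3C (0.56, SE 0.14, adjusted p = 0.0375). Nlrc5, the transactivator of class I genes, stood at 4620 ± 431 in Stim1KO Stat3C and 3384 ± 617 in Stat3C (SD, n = 3 each; 0.46, SE 0.13, adjusted p = 0.0472). Both were again highest in Stat3C replicate 2 within Stat3C, and they lost their call in 11 and 12 of 20 settings, among them the omission of any library but that one (limma, adjusted p = 0.0781 to 0.139 for B2m and 0.0678 to 0.162 for Nlrc5).

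**Figure D5:**
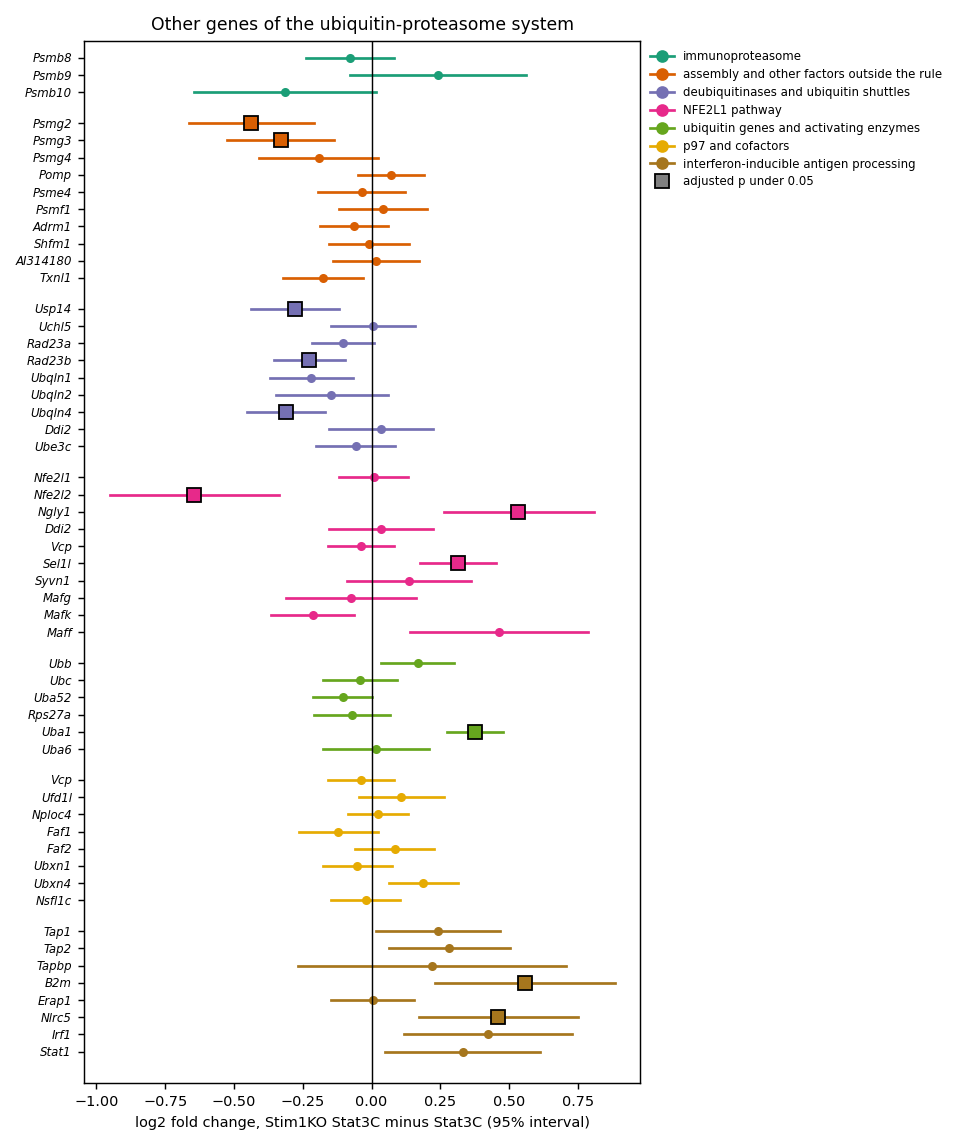
Log2 fold change (Stim1KO Stat3C minus Stat3C) with its 95% interval for the other genes of the ubiquitin-proteasome system and antigen processing, coloured by list, with squares for an adjusted p under 0.05. Squares left of 0 are Psmg2, Psmg3, Usp14, Rad23b, Ubqln4 and Nfe2l2, and squares right of 0 are Ngly1, Sel1l, Uba1, B2m and Nlrc5.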

How the data were processed

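Poly(A) RNA (100 ng) went into a strand-specific kit, as the labels' protocols state. Among tools, HTSeq 0.11.1, TopHat2 2.1.1 and DESeq2 1.22.2 are named in the submitters' processing notes, with the build mm10 and no roles. Gene models and the strand setting of the counting are not given in those sources. The deposited values are a signal: read counts divided, as the values show, by 1 factor per library, since 100% of the values above 0 were whole multiples of 1 step per column within 0.01. Of its 23420 rows, 27 with names turned into dates were left out (at most 0.217% of reads). limma 3.58.1 (R 4.3.3) with a variance trend was fitted to log2(value + 1) of all genes with a mean of at least 10, two-sided, with Benjamini-Hochberg adjustment over them. Alternatives on recovered reads used edgeR 4.0.16, DESeq2 1.42.0 and voom, and others changed pseudocount, filter, scaling, variance prior, weights, Xist as covariate or left out 1 library. The step of Stim1KO Stat3C replicate 3, 0.995, lies near 1. edgeR was therefore also run without that library, an alternative chosen after seeing the data. The fit was checked on simulated data. Within groups the chi-square per degree of freedom between 2 libraries was at least 8.75, so none was a copy. Stat3C replicate 2 differed most from its group, with 53.8 against replicate 1 and 36.5 against replicate 3. The other pairs within groups stood at 8.75 to 14.0.

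The members and lists were chosen with earlier results of these data known. Values per library went to called members, catalytic and activator subunits, Psmc3ip, the extremes of fold change, and up to 4 called or 2 most abundant genes per list. Psma6, Psma7, Psmd2, Psmd7, Psmb10, Psmg4, Nfe2l1 and other genes outside that rule were chosen after their values were seen. Of 53 genes in 7 lists 52 were found. Positions and lengths are from GENCODE M21 (GRCm38).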

Additional observations from a re-analysis of the deposited data

How the results depend on the processing

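No paired analysis was possible because the labels give no replicate numbers shared by the groups. The median log2 fold change of the 39 proteasome genes was negative in every setting run, -0.113 to -0.051 with 1 library left out, and none of the 39 was called higher in any. How many were called lower depended on the setting. The number was 0 with no filter on low values, no variance trend, edgeR (all 6 or 5 libraries) or voom. It was 2 with TMM or upper quartile scaling and 3 with Xist as covariate. It was 5 with DESeq2 (8.51% of all genes lower) and 11 with library quality weights (15.1% of all genes lower). DESeq2 called Psma7, Psmb5, Psmb6, Psmd7 and Psmg1, and the weights called Psma6, Psmb3, Psmb5, Psmb6, Psmc3ip, Psmd2, Psmd3, Psmd7, Psmd14, Psme3 and Psmg1. With 1 library left out it was 0 to 6: 0 for each library but Stat3C replicate 2, without which Psma6, Psmb5, Psmb6, Psmd7, Psme3 and Psmg1 were called and 10.3% of all genes were lower. Over all genes, 603 were higher and 224 lower without a variance trend, 2155 and 1804 with weights, 639 and 283 with edgeR on 5 libraries, 1004 lower with DESeq2, and 478 to 1727 higher and 140 to 1212 lower with 1 library left out. The cause was not tested.

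Fold changes near 0 changed sign for 12 of the 39 genes, none of them called. Upper quartile scaling gave -0.014 for Psmd10, -0.002 for Psmd8 and -0.011 for Nfe2l1. TMM gave -0.001 for Psmd10. Weights gave -0.003 for Psmd8, 0.062 for Psme1 and -0.053 for Nfe2l1. edgeR on 5 libraries gave -0.018 for Psma2, -0.081 for Psmd10, -0.032 for Psmd8 and -0.007 for Nfe2l1. DESeq2 gave -0.001 for Psmd10 and -0.006 for Nfe2l1, and voom -0.000 for Nfe2l1. With 1 library left out the ranges were -0.131 to 0.005 for Psma1, -0.008 to 0.067 for Psma2, -0.090 to 0.035 for Psma4, -0.126 to 0.018 for Psmb1, -0.076 to 0.011 for Psmc2, -0.098 to 0.042 for Psmc6, -0.056 to 0.015 for Psmd6, -0.021 to 0.050 for Psmd8, -0.037 to 0.037 for Psmd9, -0.070 to 0.068 for Psmd10, -0.132 to 0.001 for Psmd12, -0.065 to 0.092 for Psme1, -0.026 to 0.043 for Nfe2l1 and -0.071 to 0.000 for Vcp.

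Copies limit some counts: RefSeq lists pseudogenes of Psma5, Psmb5, Psmb6 and Psmb7 and a copy of Psme2, and exons of 8 of the 39 genes overlap a gene on the other strand and those of 2 a gene on the same strand. These counts are uncertain.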
